A study of Homo sapiens with 4 samples.

Results

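The genes of the YAP/TAZ pathway were examined in BT474 cells treated with AICAR: the coactivators YAP1 and WWTR1 (which encodes TAZ), their DNA-binding partner TEAD1, the kinases LATS1 and LATS2, the scaffolds AMOTL1 and AMOTL2, the secreted target products CCN1 (formerly CYR61) and CCN2 (formerly CTGF), and the adaptor AJUBA. They were taken as every probe set that the platform annotation assigns to a single gene that is among these 10, which gave 29 of 54613 probe sets (a probe set is the group of probes on the array that reports a transcript) and 10 of 19775 genes. BT474 is an established human breast cancer line with luminal markers and amplified ERBB2 (HER2). The AICAR group (0.5 mM, 24 h) and the vehicle group (24 h) had 2 Affymetrix arrays each, and all cells were grown in DMEM. AICAR is a nucleoside analog that cells phosphorylate to ZMP, an AMP mimic that activates the energy-sensing kinase AMPK. Nothing in the labels says that replicates came from separate cultures, and the p-values therefore speak of the spread among these 4 arrays, part of which may be technical.

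In the Hippo pathway the kinases encoded by STK3 and STK4 activate LATS1 and LATS2, which phosphorylate YAP and TAZ and hold them out of the nucleus. Unphosphorylated YAP and TAZ enter the nucleus, bind TEAD factors and switch on genes of growth and cell adhesion such as CCN1, CCN2, AMOTL2 and LATS2. AMPK is known from other cells to phosphorylate YAP itself and the scaffold AMOTL1. The arrays measured RNA, and neither phosphorylation nor the location of these proteins. RNA was taken from whole cultures, where fewer cells of a type and less RNA per cell cannot be told apart.

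AJUBA was the pathway gene that fell with AICAR, 1.41- to 1.62-fold on 3 of its 4 probe sets. CCN1 was 1.27- and 1.31-fold above vehicle on its 2 probe sets, neither of which passed in the fit of probe sets. The brighter of them, at 1.27-fold, passed in the fit of genes, which uses it alone. The coactivators, TEAD1, both LATS kinases and both angiomotin-like scaffolds did not pass. CCN2 lay too low on the array to be tested. Of the 29 probe sets 23 were bright enough for the test, and of those 0 were higher and 3 lower (limma, adjusted p under 0.05), against 3 and 3 at an unadjusted p under 0.05. Over all 38229 probe sets tested 3.84% were called, 1.43% higher and 2.42% lower. Before adjustment, p fell under 0.05 for 3225 of these 38229 with a positive difference and for 4669 with a negative one. The 3 called pathway probe sets all belonged to AJUBA and are not independent of each other, since they report the same gene.

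**Figure D1:**
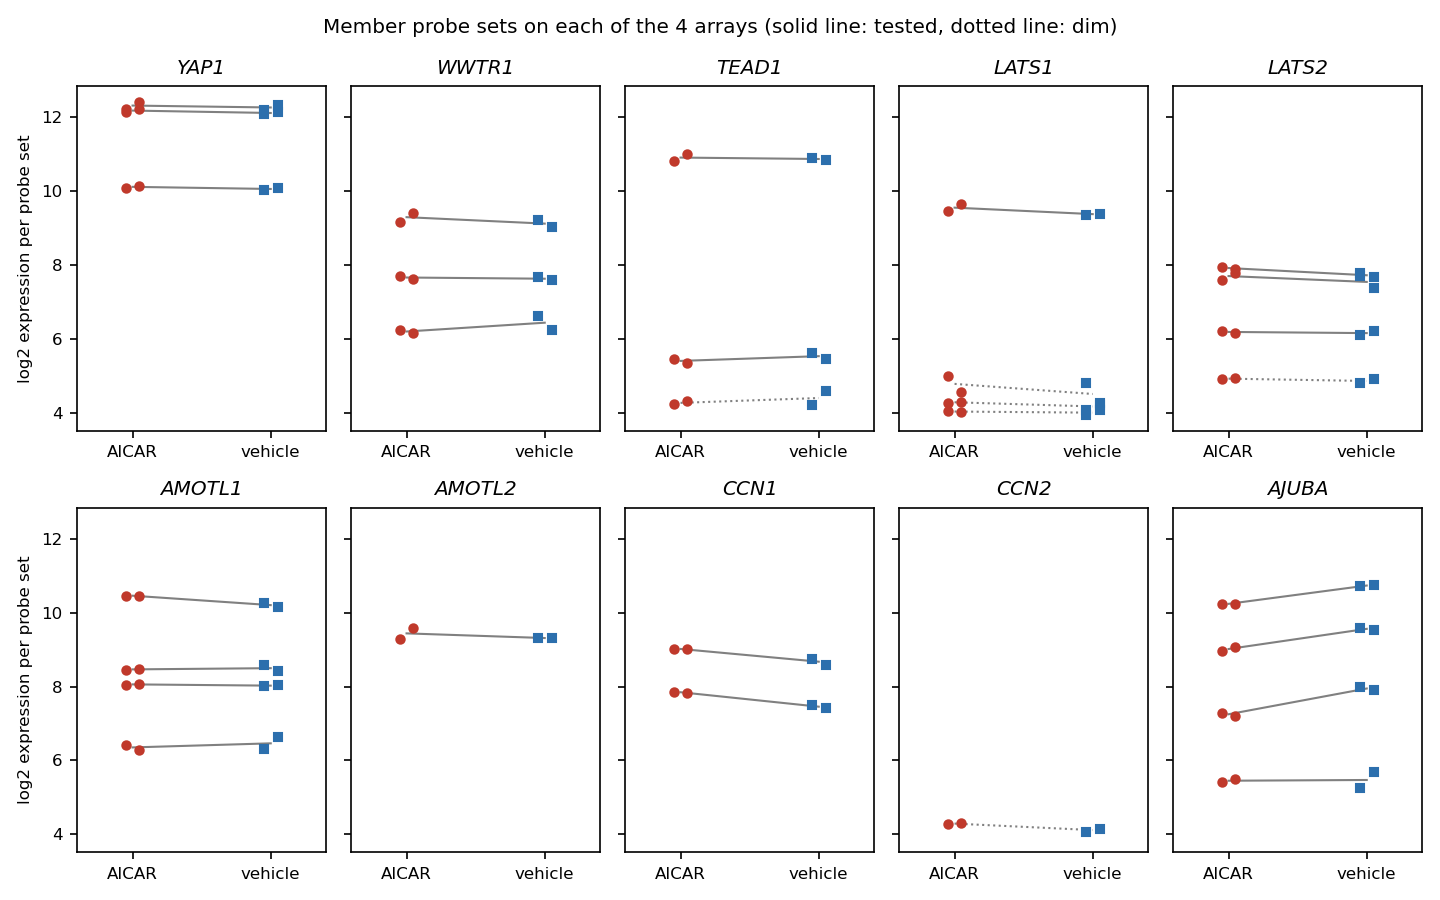
Log2 expression of each of the 29 probe sets on each array, with AICAR arrays as red circles, vehicle arrays as blue squares and a line between the group means, solid where the probe set was tested and dotted where it was dim. The AICAR values of AJUBA lie below the vehicle values on its 3 brightest probe sets, those of CCN1 lie above on both, and the 3 YAP1 probe sets overlap.

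AJUBA encodes a LIM-domain adaptor of cell junctions and centrosomes that binds the LATS kinases and restrains their action on YAP. Its brightest probe set, 225806_at, read 10.25 and 10.24 (log2) on the AICAR arrays, against 10.72 and 10.75 on the vehicle arrays. The groups lay well apart, with a difference (AICAR minus vehicle) of -0.50 on the log2 scale (SE 0.0777, limma adjusted p = 0.0329), 1.41-fold lower. Probe set 1553764_a_at read 8.96 and 9.07 with AICAR, against 9.59 and 9.54 with vehicle, a difference of -0.55 (SE 0.0843, adjusted p = 0.0325) or 1.46-fold lower. The largest change was that of 225807_at, at 7.29 and 7.21 with AICAR against 7.99 and 7.91 with vehicle, 1.62-fold lower (log2 -0.70, SE 0.0839, adjusted p = 0.0206). In none of the 3 did the groups overlap. The dimmest probe set, 243446_at, read 5.40 and 5.49 with AICAR and 5.26 and 5.68 with vehicle, close to the bound for dim probe sets of 5.21, and its groups overlapped (log2 -0.02, 95% confidence interval -0.37 to 0.33). As a gene, represented by 225806_at, AJUBA passed in the fit of genes (adjusted p = 0.0124), and its mean over all 4 probe sets was 0.44 lower on the log2 scale (difference -0.44, adjusted p = 0.0132). In the probe set fits that left out 1 array the difference of 225806_at was -0.51 to -0.48 and that of 225807_at -0.74 to -0.65, but adjusted p lay at 0.103 to 0.209 and 0.0712 to 0.172. In those 4 fits at most 1 of the 38229 probe sets on the array passed. In the gene fits AJUBA passed without AICAR replicate 1 and without AICAR replicate 2, but not without vehicle replicate 1 (adjusted p = 0.0822) or vehicle replicate 2 (0.0855).

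Promoter windows of RefSeq (GRCh38.p14, from 250 bases before to 50 bases after a transcript start) are shown for AJUBA, the gene that fell, and for AMOTL2 and CCN2, direct YAP/TAZ targets, as a picture of how densely the TEAD core motif GGAATG can stand near a start. The motif was searched on both strands, as GGAATG and its reverse complement CATTCC, which do not overlap each other; matches are in capitals and each sequence runs 5′ to 3′ along the gene.
AJUBA, chr14:22976793-22977092, minus strand: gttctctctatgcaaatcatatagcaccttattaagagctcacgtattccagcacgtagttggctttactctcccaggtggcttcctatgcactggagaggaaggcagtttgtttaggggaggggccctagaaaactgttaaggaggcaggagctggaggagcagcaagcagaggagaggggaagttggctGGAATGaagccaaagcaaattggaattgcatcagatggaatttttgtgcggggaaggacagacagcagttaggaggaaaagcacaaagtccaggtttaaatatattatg
AJUBA, chr14:22982502-22982801, minus strand: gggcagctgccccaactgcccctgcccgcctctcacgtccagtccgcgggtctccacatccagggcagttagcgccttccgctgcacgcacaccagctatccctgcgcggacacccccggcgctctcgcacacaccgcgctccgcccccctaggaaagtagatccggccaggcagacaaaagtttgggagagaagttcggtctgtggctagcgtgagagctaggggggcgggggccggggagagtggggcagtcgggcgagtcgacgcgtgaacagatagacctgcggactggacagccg
AMOTL2, chr3:134374398-134374697, minus strand: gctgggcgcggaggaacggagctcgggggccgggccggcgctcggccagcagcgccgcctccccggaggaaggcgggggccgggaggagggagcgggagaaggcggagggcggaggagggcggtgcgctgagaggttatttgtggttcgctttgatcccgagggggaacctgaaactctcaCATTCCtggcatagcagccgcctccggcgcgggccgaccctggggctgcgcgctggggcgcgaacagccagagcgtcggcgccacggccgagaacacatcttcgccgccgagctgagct
CCN2, chr6:131951323-131951622, minus strand: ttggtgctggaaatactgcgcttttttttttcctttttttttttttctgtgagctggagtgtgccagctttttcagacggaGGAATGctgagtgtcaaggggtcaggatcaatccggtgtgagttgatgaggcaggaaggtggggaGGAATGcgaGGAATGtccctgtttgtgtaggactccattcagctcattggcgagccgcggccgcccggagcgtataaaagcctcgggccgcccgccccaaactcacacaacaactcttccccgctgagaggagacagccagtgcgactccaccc
The AJUBA window on top has 1 match, at position -59 from the start, and the second AJUBA start has 0. AMOTL2 has 1 match at position -69 in the window shown and 0 in that of its second start, which is not printed. CCN2 has 3, at -169, -104 and -95. Windows were at hand for 8 of the 10 genes, without CCN1 and TEAD1, and 5 of their 12 windows held the motif, those of YAP1, LATS2, AMOTL2, CCN2 and AJUBA, against 14.0% of all 35116 windows. Other YAP/TAZ target genes, listed further below, had the motif in 6 of 14 windows (42.9%). LATS2, AMOTL2 and CCN2 were known targets beforehand, so the share depends on how the genes were chosen. It was not tested. A match describes these letters only, and is not a measured binding site.

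CCN1 and CCN2 encode secreted matricellular proteins that bind integrins and are the most used readouts of YAP/TAZ activity. CCN1 probe set 201289_at read 9.03 and 9.01 (log2) with AICAR, against 8.76 and 8.59 with vehicle. Its second probe set, 210764_s_at, read 7.86 and 7.84 with AICAR and 7.49 and 7.42 with vehicle. Both AICAR arrays lay above both vehicle arrays on each probe set, by differences of 0.34 (SE 0.0908, limma adjusted p = 0.0965) and 0.39 (SE 0.0796, adjusted p = 0.0531) on the log2 scale. In the fit of genes, which tested 13842 genes by their brightest probe set, CCN1 rose by 0.34 (log2, SE 0.0810, adjusted p = 0.0485), just inside the threshold. It did not pass there after median centring of the arrays (0.0547), without the filter on dim genes (0.0916), or in any of the 4 fits without 1 array, where the difference was 0.26 to 0.43 and adjusted p 0.0996 to 0.229. With the mean of both probe sets it passed (log2 0.37, adjusted p = 0.0243). CCN2 has a single probe set, 209101_at, at 4.27 and 4.30 with AICAR and 4.07 and 4.15 with vehicle. It lay below the dim bound, so that its difference of 0.18 was not tested and may be compressed.

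YAP1 and WWTR1 encode the coactivators YAP and TAZ. YAP1 probe set 224894_at read 12.22 and 12.43 (log2) with AICAR, against 12.20 and 12.34 with vehicle, 224895_at read 12.15 and 12.22 against 12.09 and 12.15, and 213342_at read 10.09 and 10.15 against 10.03 and 10.09. The groups overlapped on all 3. Their differences of 0.05, 0.07 and 0.06 had 95% confidence intervals of -0.20 to 0.30, -0.13 to 0.26 and -0.14 to 0.25, so that shifts of YAP1 RNA beyond 0.30 in either direction lay outside the intervals. WWTR1 had probe sets of unlike sign. Its brightest, 202133_at, was at 9.18 and 9.42 with AICAR and 9.21 and 9.04 with vehicle (log2 difference 0.17, interval -0.10 to 0.45), and 202132_at differed by 0.03. The dimmest, 202134_s_at, read 6.24 and 6.16 with AICAR, below the 6.62 and 6.25 with vehicle (-0.24, interval -0.56 to 0.08, limma adjusted p = 0.371), and its vehicle arrays lay further apart than its AICAR arrays.

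TEAD1 is among the transcription factors through which YAP and TAZ reach DNA. It was read well by 224955_at, at 10.82 and 11.01 with AICAR and 10.91 and 10.84 with vehicle. The groups overlapped, with a difference of 0.04 on the log2 scale (95% confidence interval -0.19 to 0.27). Its probe set 214600_at differed by -0.13 near the dim bound, and 1553322_s_at was dim.

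LATS1 and LATS2 encode the kinases that inactivate YAP and TAZ, and LATS2 is itself a YAP/TAZ target. LATS1 rested on 227772_at, at 9.46 and 9.65 (log2) with AICAR, against 9.37 and 9.39 with vehicle. The groups did not overlap, and the difference of 0.18 (interval -0.05 to 0.40) did not pass (limma adjusted p = 0.356). The other 3 LATS1 probe sets were dim. LATS2 probe set 223380_s_at read 7.95 and 7.89 with AICAR and 7.77 and 7.67 with vehicle, also without overlap (0.20, interval -0.01 to 0.40, adjusted p = 0.259). Its probe sets 227013_at and 223379_s_at overlapped between groups, at differences of 0.16 and 0.03. All 8 probe sets of both kinases had positive differences, 0.03 to 0.27, including the dim ones that were not tested. Among tested probe sets only, the 4 of both kinases were positive, as were 19499 of all 38229. The 0.27 was that of the dim LATS1 probe set 1570425_s_at, and probe sets of the same gene are not independent. In the fits without 1 array the LATS2 probe set 227013_at ran from -0.005 to 0.32 and 223379_s_at from -0.02 to 0.08. Of the 4 tested probe sets 0 passed.

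The angiomotin-like proteins AMOTL1 and AMOTL2 hold YAP and TAZ at junctions and in the cytoplasm. AMOTL1 probe set 225450_at read 10.46 on both AICAR arrays, against 10.27 and 10.15 on the vehicle arrays. The groups were apart by 0.26 (log2, interval 0.05 to 0.46, limma adjusted p = 0.159), and the gene fit gave an adjusted p of 0.0849. The other AMOTL1 probe sets did not follow it: 225459_at differed by -0.03, 228840_at by 0.03 and 235277_at by -0.11, and the mean of all 4 by 0.04 (adjusted p = 0.753). AMOTL1 225450_at passed with a variance trend and robust variances (adjusted p = 0.0295). AMOTL2, also a YAP/TAZ target, has the single probe set 203002_at, at 9.30 and 9.58 with AICAR and 9.31 and 9.32 with vehicle. The groups overlapped (0.13, interval -0.14 to 0.39), and the AICAR pair differed by more than the vehicle pair.

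**Figure D2:**
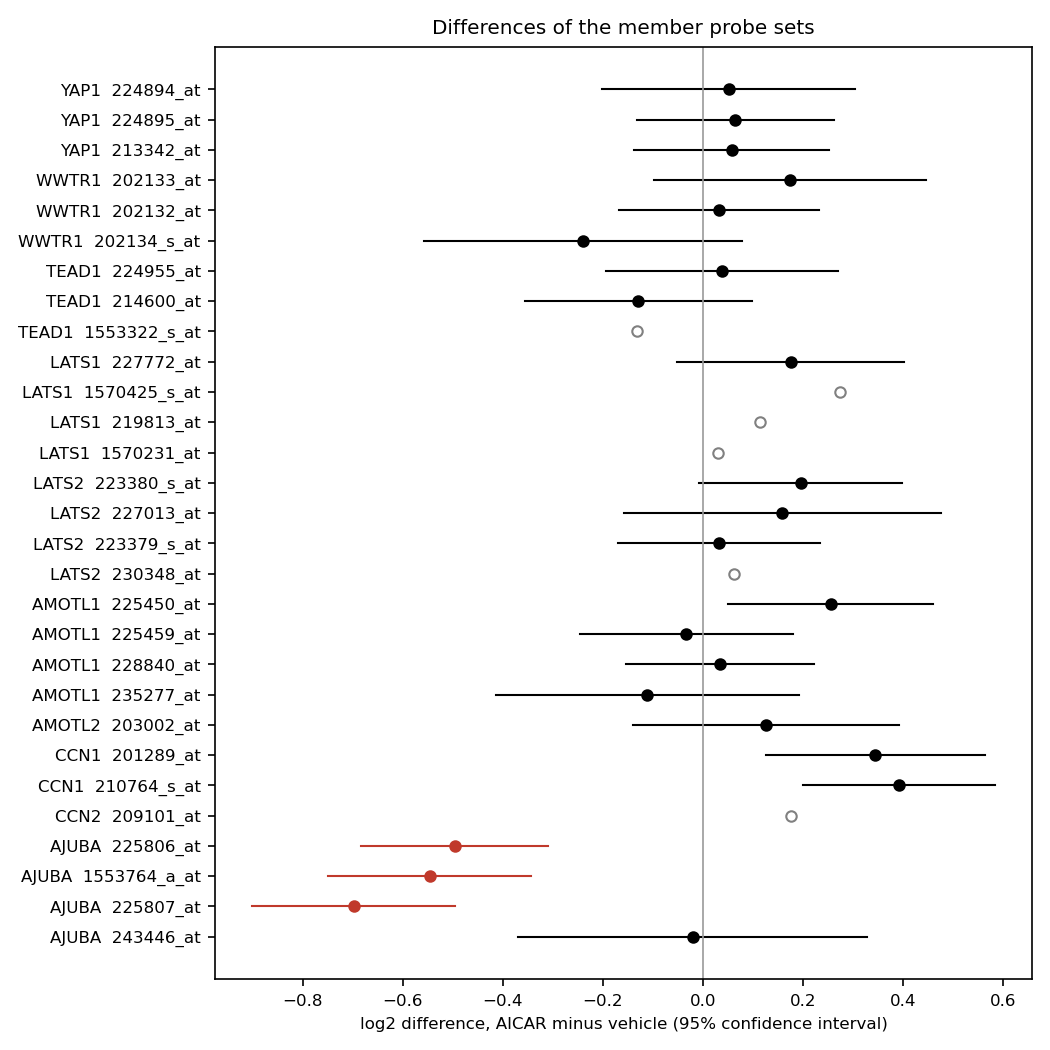
Log2 difference (AICAR minus vehicle) of each of the 29 probe sets with its 95% confidence interval from limma; red marks an adjusted p under 0.05, and open circles are the 6 dim probe sets, which were not tested. The 3 called AJUBA probe sets lie between -0.70 and -0.50, the CCN1 intervals lie above 0 without passing the adjusted threshold, and outside AJUBA the tested differences run from -0.24 to 0.39.

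Set against the array as a whole, most pathway probe sets stayed near the general level of change. Outside AJUBA the 19 tested probe sets had differences of -0.24 to 0.39 with a median of 0.06 (log2), and the median of all tested probe sets was 0.0037. The AICAR and vehicle arrays did not overlap on 10 of the 23 tested pathway probe sets, 6 higher and 4 lower, or 43.5%, against 51.6% of all probe sets tested (24.5% higher and 27% lower). By gene, 1 of the 9 genes tested rose (CCN1) and 1 fell (AJUBA), with 9.82% of all 13842 genes called, 4.63% higher and 5.19% lower. The median difference was 0.17 over the 9 genes and 0.0097 over all genes tested. Over the 9 genes it was 0.06 when AICAR replicate 2 was left out. When probe sets were averaged by gene, 8 of the genes were tested and their median was 0.05. Of all genes, 641 were higher and 718 lower; quantile normalization of the deposited values turned this split to 854 and 625.

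Other genes of the Hippo pathway showed few changes, in both directions. Of 31 genes listed, from the upstream kinases and membrane scaffolds to the TEAD, VGLL and Ajuba families, 26 were tested, and 2 rose and 1 fell in the fit of genes (11.5%, against 9.82% of all genes). FRMD6, a FERM-domain protein that feeds the kinase cassette, read 10.02 and 10.17 (log2) with AICAR, against 9.74 and 9.62 with vehicle (difference 0.42, SE 0.0841, limma adjusted p = 0.0318). Its second probe set differed by 0.43 and did not pass in the fit of probe sets (limma adjusted p = 0.135). STK3, the kinase MST2 that phosphorylates LATS1 and LATS2, read 10.27 and 10.30 with AICAR and 9.91 and 9.89 with vehicle (0.39, SE 0.0662, adjusted p = 0.0217), but its other probe set differed by 0.02 and the mean of both did not pass (adjusted p = 0.243). RASSF1, a scaffold that binds the STK3 and STK4 kinases, read 8.40 and 8.26 with AICAR, against 8.69 and 8.65 with vehicle, and fell by 0.34 on the log2 scale (SE 0.0780, adjusted p = 0.0458). Without the filter on dim genes FRMD6 (0.0621) and RASSF1 (0.0875) did not pass, nor did RASSF1 after quantile normalization (0.0703) or with the replicate number as a block (0.0508). All 3 were lost without AICAR replicate 2 (adjusted p = 0.0881 for FRMD6, 0.0597 for STK3 and 0.115 for RASSF1), without vehicle replicate 1 (0.118, 0.131 and 0.231 in the same order) and without vehicle replicate 2 (0.168, 0.124 and 0.165). In the fit of probe sets, the probe sets used for FRMD6, STK3 and RASSF1 did not pass (limma adjusted p = 0.0671, 0.0518 and 0.0931). The median of the 26 genes was -0.04, and 0.0081 without AICAR replicate 1. The AJUBA relatives LIMD1 and WTIP differed by -0.13 and -0.06 and did not pass (adjusted p = 0.643 and 0.787).

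Among 18 other genes commonly used as YAP/TAZ targets, 11 were tested, and 2 rose and 1 fell (3 of 11 genes, where 4.63% of all genes were higher and 5.19% lower); no test of the list was made. IGFBP3, which binds insulin-like growth factors in the medium, was at 9.996 and 10.07 (log2) with AICAR, against 9.44 and 9.32 with vehicle, 1.57-fold higher (log2 0.65, SE 0.0764, limma adjusted p = 0.00920). Its second probe set rose too in the fit of probe sets (0.52, adjusted p = 0.0407). CRIM1, a membrane protein that binds bone morphogenetic proteins, read 8.22 and 8.26 with AICAR and 7.85 and 7.76 with vehicle (0.43, SE 0.0710, adjusted p = 0.0198), and its other probe sets differed by 0.16 and 0.42. Averaged over all 3 probe sets it missed the threshold (adjusted p = 0.0590). ARHGEF17, a guanine nucleotide exchange factor, went the other way at 8.65 and 8.72 with AICAR against 9.05 and 9.04 with vehicle (-0.36, SE 0.0684, adjusted p = 0.0277), and did not pass without the dim filter (0.0598). In the fit of probe sets, the probe sets used for IGFBP3 and CRIM1 passed (limma adjusted p = 0.0238 and 0.0466). That of ARHGEF17 did not (0.0659). The other 8 tested genes, MYOF, ASAP1, F3, FJX1, GADD45A, CCDC80, DOCK5 and PTPN14, had differences of 0.01 to 0.24 and did not pass. The list median was 0.14, against 0.0097 for all genes, and it was 0.08 without AICAR replicate 2 and 0.06 over the 9 genes tested when probe sets were averaged. ANKRD1, a cardiac ankyrin-repeat protein and strong YAP target, was dim, at 4.59 and 4.89 with AICAR and 4.30 and 4.42 with vehicle. IGFBP3 was lost without vehicle replicate 2 (adjusted p = 0.0701). CRIM1 was lost without AICAR replicate 2 (0.0577), vehicle replicate 1 (0.0940) and vehicle replicate 2 (0.119), and ARHGEF17 in each of the 4 fits without 1 array (0.0562 to 0.162).

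Only 2 other genes of the CCN family, to which CCN1 and CCN2 belong, were bright enough for the test, CCN3 and CCN5. Both were higher with AICAR, where 4.63% of all genes were called higher, and the family as such was not tested. CCN5, formerly WISP2, which lacks the carboxy-terminal domain of its relatives, read 7.48 and 7.42 (log2) with AICAR, against 6.67 and 6.76 with vehicle. It rose 1.66-fold (log2 0.73, SE 0.0726, limma adjusted p = 0.00665) and did not pass without vehicle replicate 1 (0.0508). CCN3, formerly NOV, read 6.39 and 6.44 with AICAR and 6.06 and 5.95 with vehicle (0.41, SE 0.0736, adjusted p = 0.0241), close to the gene bound for dim levels of 6.11. Its second probe set read 5.61 and 6.07 against 4.90 and 4.87 (0.96, adjusted p = 0.0328 in the fit of probe sets). CCN3 was lost without AICAR replicate 2 (0.0706), vehicle replicate 1 (0.0991) and vehicle replicate 2 (0.142). CCN4 and CCN6 were dim as genes, with brightest probe sets at 0.35 and 0.09 above vehicle. Of the 4 CCN4 probe sets 2 had negative differences, the lowest -0.12, and the 2 CCN6 probe sets were at 0.09 and 0.24.

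**Figure D3:**
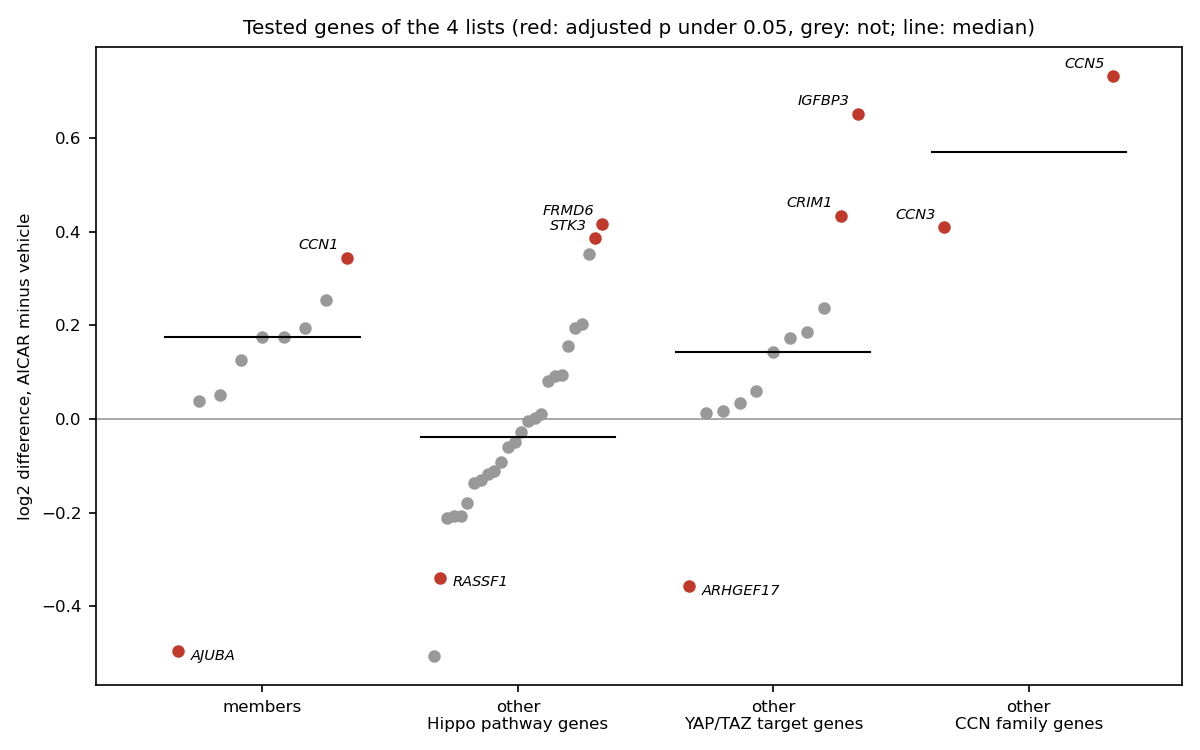
Log2 difference (AICAR minus vehicle) of every tested gene, by its brightest probe set, in the 10 pathway genes (9 tested), 26 other Hippo pathway genes, 11 other YAP/TAZ target genes and 2 other CCN family genes; named red points passed an adjusted p under 0.05, grey points did not, and lines are list medians. AJUBA, RASSF1 and ARHGEF17 lie below 0, and CCN1, FRMD6, STK3, IGFBP3, CRIM1, CCN3 and CCN5 above.

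The array medians were close, at 6.40 and 6.38 (log2) for AICAR and 6.37 and 6.38 for vehicle. Medians do not show that the distributions were alike, and quantile normalization changed the split of called genes as given above. All 10 luminal and ERBB2 markers were above the dim bound, with group means of 9.25 to 14.2 with AICAR and 9.30 to 14.1 with vehicle, and ESR1, the estrogen receptor, was the single marker called (log2 -0.31, limma adjusted p = 0.0411). ESR1 did not pass without the dim filter (0.0845), and its brightest probe set did not pass in the fit of probe sets (0.0911). Its 8 other probe sets differed by -0.22 to 0.12, with 0 called in that fit. Of 8 markers of fibroblasts, endothelium, blood and basal cells, 4 were dim, CDH5, PTPRC, COL3A1 and KRT14, and COL1A1 was lower with AICAR (log2 -0.63, adjusted p = 0.0209). The log2 of the summed linear signal of the 8 was 10.1 and 10.2 with AICAR, against 10.5 and 10.6 with vehicle. Without COL1A1 it was 8.99 and 8.85 with AICAR and 8.96 and 8.88 with vehicle, where the groups overlapped. DCN differed by 0.12, KRT5 by 0.09 and PECAM1 by -0.17, and did not pass. Of the 5 COL1A1 probe sets 4 had negative differences, and the other, 217430_x_at, differed by 0.13. The part of the ESR1 and COL1A1 shifts in the changes of AJUBA and CCN1 was not tested.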

How the data were processed

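The authors deposited log2 expression values per probe set for 4 arrays, made with Affymetrix Expression Console per the submitters' processing notes; its version and algorithm are not stated there, and background handling, which can compress differences at low signal, is unknown. Values of 2.95 to 15.3 were used as deposited. Probe sets were named from the platform annotation. By Entrez ID 41043 single-symbol probe sets were matched to the RefSeq table of GRCh38.p14 and took its symbol, whether or not it differed. The 62 control probe sets were left out.

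AICAR minus vehicle was fitted with lmFit and eBayes (limma 3.58.1, R 4.3.3), once over probe sets and once over genes (brightest probe set of each gene). Rows whose mean lay below the 30th percentile (log2 5.21 for probe sets, 6.11 for genes) were left out as dim. P-values are two-sided with Benjamini-Hochberg adjustment over all rows tested; rose, fell and called mean an adjusted p under 0.05. The number of arrays limits the precision: the median SE over probe sets was 0.0912. With 2 against 2 arrays the smallest p of an exact permutation test is 0.333, too high to be of use. The fit was tested on simulated data, drawn from its own variance model, which checks the code and not the calls. Some genes of the lists are not reported here.

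The pathway genes and the lists were chosen with earlier results of these data known. The text names every pathway gene, up to 4 called genes of each further list and the other CCN genes; ANKRD1, LIMD1, WTIP and the STRN, STRN3 and SAV1 probe sets were picked with their values in view. Alternatives tried were other dim filters, quantile normalization, median centring, a variance trend with robust variances, an adjusted p under 0.1, the mean of a gene's probe sets, a replicate block, and leaving out each array.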

Additional observations from a re-analysis of the deposited data

How the results depend on the processing

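Of the alternatives, 7 could change the difference of a gene: quantile normalization, median centring, the mean of probe sets and the 4 fits without 1 array. In these AJUBA was -0.51 to -0.44 (log2) and CCN1 0.26 to 0.43. YAP1, TEAD1, WWTR1 and AMOTL2 turned sign in some without passing in any. AMOTL1 passed as a gene with a dim filter at the 50th percentile (adjusted p = 0.0449), with a trend and robust variances (0.0159) and at an adjusted p under 0.1. The dim filter sets how many rows are tested, and it also changed the SE in the fit of probe sets. With the filter the SE was 0.0908 for CCN1 201289_at and 0.1445 for AJUBA 243446_at. Without it they were 0.0961 and 0.1441. Other causes were not tested.

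Pathway probe sets higher numbered 1 with the filter at the 50th percentile, 1 after quantile normalization, 3 with a trend and robust variances and 2 at an adjusted p under 0.1. Pathway genes higher numbered 0 without the dim filter, 2 with the filter at the 50th percentile, 0 after median centring, 2 with a trend and robust variances and 2 at an adjusted p under 0.1. Other Hippo genes higher and lower numbered 1 and 0 without the filter, 4 and 4 with a trend and robust variances and 1 and 2 with the mean of probe sets; 2 were lower with the filter at the 50th percentile and 2 at an adjusted p under 0.1. Target genes lower numbered 0 without the filter, and 1 was higher with the mean of probe sets. All probe sets higher and lower numbered 327 and 485 without the filter and 886 and 1506 at the 50th percentile, against 545 and 924. They numbered 713 and 879 after quantile normalization, 1603 and 2812 with a trend and robust variances, and 1230 and 2090 at an adjusted p under 0.1. All genes higher and lower numbered 368 and 355 without the filter, 819 and 990 at the 50th percentile, and 571 and 753 after median centring. With a trend and robust variances they numbered 1107 and 1359. At an adjusted p under 0.1 they were 1093 and 1173, and with the mean of probe sets 551 and 692.

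The replicate numbers are shared by both groups, but nothing in the labels pairs them, and deviations of same-numbered arrays correlated at r = -0.0840 over probe sets. With the replicate block 1 pathway probe set was lower (AJUBA 225807_at, adjusted p = 0.0293), 0 pathway genes were higher (CCN1 adjusted p = 0.0529), and 322 and 509 of all probe sets were called.

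In the fits without 1 array in turn, a lone array is assumed to vary like the other group. There AJUBA differed by -0.51 to -0.48 (log2) on 225806_at, -0.60 to -0.49 on 1553764_a_at and -0.74 to -0.65 on 225807_at. Its dimmest probe set, 243446_at, ran from -0.23 to 0.19. CCN1 differed by 0.26 to 0.43 on 201289_at and 0.36 to 0.42 on 210764_s_at. Pathway genes higher numbered 0 to 0 and lower 0 to 1. Other Hippo genes numbered 0 to 2 higher and 0 to 1 lower, target genes 0 to 2 higher and 0 to 0 lower, all genes 69 to 553 higher and 30 to 432 lower, and all probe sets 0 to 1 higher and 0 to 0 lower.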

Other observations

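Probe sets of SAV1 and STRN differed in sign. SAV1, which binds the STK3 and STK4 kinases to LATS, had 3 probe sets higher by 0.22 to 0.37 (log2) and 2 at -0.21 and -0.54, of which the last was dim, and 0 of the 4 tested were called (limma). Its probe set 218276_s_at read 8.36 and 8.35 with AICAR, against 8.06 and 7.91 with vehicle (adjusted p = 0.0745). STRN, a subunit of the phosphatase complex that acts against STK3 and STK4, had 10 probe sets with differences of -0.29 to 0.49. Of them 227422_at was higher in the fit of probe sets, at 8.72 and 8.81 with AICAR against 8.36 and 8.20 with vehicle (0.49, adjusted p = 0.0467). In the fit of genes STRN, by its brightest probe set 230734_x_at, did not pass (0.19, limma adjusted p = 0.241). Its relative STRN3 was lower on both probe sets without passing, at -0.51 and -0.47 (adjusted p = 0.0908 and 0.107).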
